A study of Mus musculus with 6 samples.

Results

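The lysosomal enzymes and membrane proteins were examined in newborn lenses of wild-type and Pax6 heterozygous mice. The list held 34 genes, called members here, and each was represented by the probe set with the highest mean log2 signal among those annotated to that gene alone. In this way 33 of the 34 were measured, of 12393 genes on the arrays with a probe set annotated to them alone. Arsb was not paired with such a probe set. The samples were 3 wild-type mice of NMRI background and 3 heterozygous mice (Pax6lacZ/+) that carried a lacZ allele of Pax6 in the germline beside the normal allele, with no tissue-specific driver. Each sample held both lenses of 1 newborn mouse, so the replicates were separate animals. Signals are the authors' RMA intensities on a linear scale, which have no count or depth, and differences are given as the mean log2 signal of heterozygous lenses less that of wild-type lenses. A signal reflects how well its probes bind as well as the transcript, so levels are not compared between genes. In bulk lens RNA, fewer cells of a type and less RNA per cell cannot be told apart.

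Lysosomes are acidic compartments in which soluble hydrolases break down proteins, glycans and lipids, while highly glycosylated membrane proteins protect the boundary and carry products out. Many genes of the compartment share an E-box element near the start of transcription, which is read by Tfeb and related factors and is known as the CLEAR element. Lens fibers remove their nuclei and other organelles as they mature, and acid hydrolases, among them the lens DNase Dnase2b, take part in that clearance.

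The promoters of several members held this element, and those with most copies, or with a genotype difference described further on, are printed to show it. RefSeq promoter windows (build GRCm38.p6) were matched to 30 of the 34 members, those of Npc1, Ctsb, Ctsh and Asah1 not being in the table. The E-box CACGTG, a palindrome that reads the same on both strands, lay within the 300 bases around the start site in 11 of 30 members (36.7%) and in 8.09% of 27025 genes of the table. The longer palindrome TCACGTGA, which holds the E-box within it, lay in 4 members (Cln3, Mcoln1, Ctsa and Ctsd; 13.3%) and in 1.12% of all genes. The other members with an E-box were Lamp1, Ctsl, Naglu, Sgsh, Gaa, Glb1 and Arsa. Each stretch runs 5′ to 3′ from 150 bases before to 30 bases after the start site, and capitals mark the E-box or the longer palindrome.
Lamp1, chr8:13159011-13159190, plus strand: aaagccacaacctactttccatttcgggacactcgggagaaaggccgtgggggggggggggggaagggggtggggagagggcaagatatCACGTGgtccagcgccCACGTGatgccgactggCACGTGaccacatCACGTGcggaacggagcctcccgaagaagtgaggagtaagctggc
Mcoln1, chr8:3500369-3500548, plus strand: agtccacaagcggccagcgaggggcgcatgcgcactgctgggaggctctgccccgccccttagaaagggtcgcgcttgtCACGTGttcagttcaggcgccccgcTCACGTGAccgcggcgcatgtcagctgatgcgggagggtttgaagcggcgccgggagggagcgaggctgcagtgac
Ctsa, chr2:164833623-164833802, plus strand: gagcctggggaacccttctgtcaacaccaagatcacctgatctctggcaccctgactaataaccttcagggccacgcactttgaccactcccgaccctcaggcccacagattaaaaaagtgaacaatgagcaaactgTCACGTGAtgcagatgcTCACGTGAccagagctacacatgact
Ctsd, chr7:142387798-142387977, minus strand: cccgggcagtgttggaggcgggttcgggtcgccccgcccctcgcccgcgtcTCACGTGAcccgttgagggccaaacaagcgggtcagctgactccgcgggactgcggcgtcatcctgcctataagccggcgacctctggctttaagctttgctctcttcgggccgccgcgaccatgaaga
Cln3, chr7:126583207-126583386, minus strand: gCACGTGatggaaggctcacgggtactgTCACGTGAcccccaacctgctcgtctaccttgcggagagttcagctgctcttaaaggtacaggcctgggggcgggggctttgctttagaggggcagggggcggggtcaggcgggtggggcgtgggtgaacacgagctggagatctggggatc
Gaa, chr11:119267813-119267992, plus strand: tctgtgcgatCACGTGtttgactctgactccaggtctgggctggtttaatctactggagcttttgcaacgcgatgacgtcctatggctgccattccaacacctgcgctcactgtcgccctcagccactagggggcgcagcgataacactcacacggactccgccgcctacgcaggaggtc
The Lamp1 stretch held 4 E-boxes, with first letters 61, 45, 28 and 15 bases before the start site. The Ctsa stretch held the longer palindrome on either side of its start site. A match of letters is a description and does not show that a factor binds there.

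No lysosomal gene passed an adjusted p of 0.05 between the genotypes, and their differences were about as small as those of other genes. With limma, 0 of 33 members passed, as did 0% of all genes, and 28 of 33 (84.8%) differed by less than 0.25 in either direction, where 83.7% of all genes did. All 33 members lay above background, and of the 8591 genes that did so 78.9% differed by less than 0.25. At an unadjusted p under 0.05, 2 members were lower in heterozygous lenses (Idua and Gaa, 6.06%), where 1.12% of all genes were, and 0 were higher, where 1.12% of all genes were. The methods' t-test on log2 signals gave 0 members after adjustment and 3 at an unadjusted p under 0.05, where 2.94% of all probe sets reached it. With the replicate number as a block, 0 members passed the adjusted threshold (0.0161% of all genes did). The blocked fit had 3 members lower at an unadjusted p under 0.05, Gaa, Idua and Mcoln1, against 4.52% of all genes, and 1 higher, Cln3, against 5.31%.

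**Figure D1:**
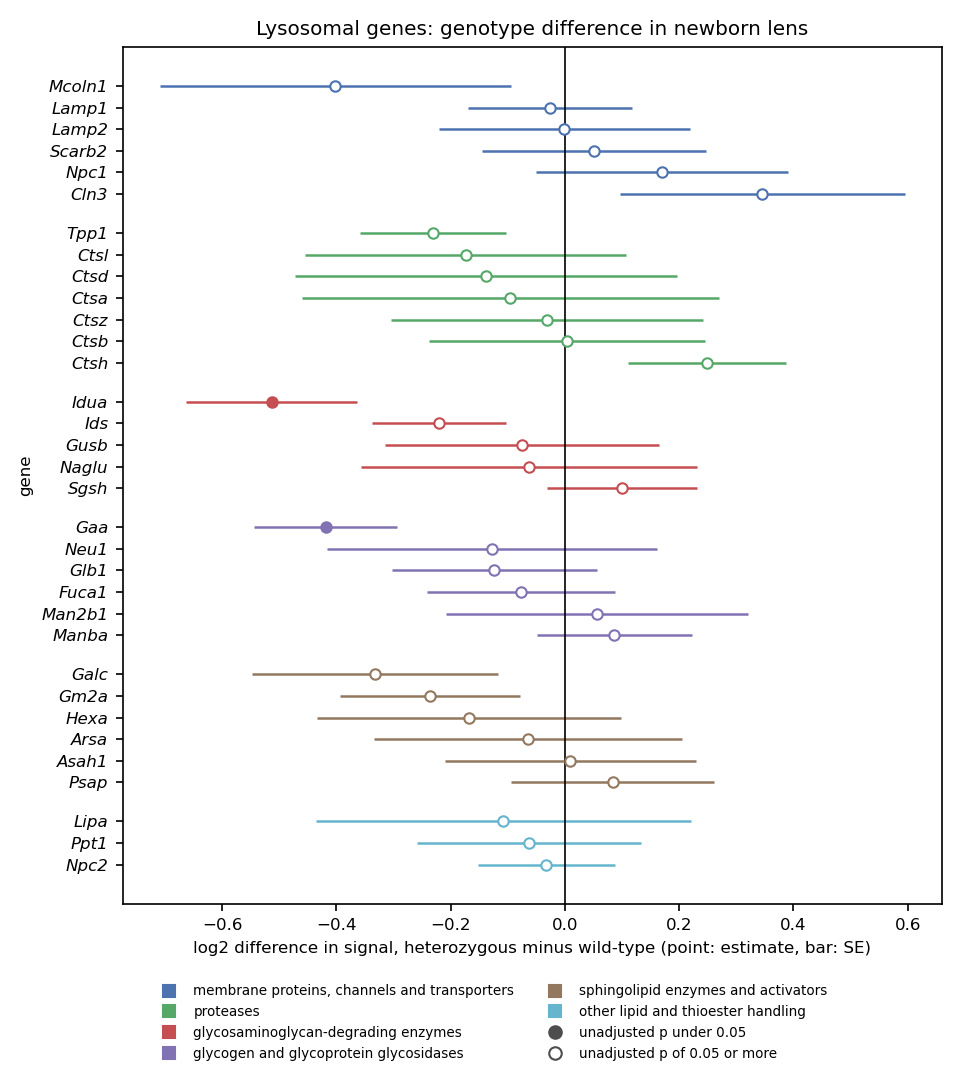
Genotype difference of the 33 measured lysosomal genes in newborn lens, grouped by role. Points give the log2 difference in signal, heterozygous minus wild-type, and bars the standard error from limma (3 mice per genotype); filled points had an unadjusted p under 0.05, which only Idua (-0.51) and Gaa (-0.42) reached.

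The enzymes that degrade glycosaminoglycans included the member with the lowest heterozygous signals relative to wild-type, Idua. Idua encodes alpha-L-iduronidase, which removes iduronic acid from heparan and dermatan sulfate. It read 138, 190 and 173 in the wild-type replicates and 113, 121 and 114 in the heterozygous replicates. All 3 heterozygous signals lay below all wild-type signals, and they were close together. The log2 difference was -0.51 ± 0.15 (standard error, limma adjusted p = 1.00; unadjusted p = 0.0124), with pair differences of -0.29, -0.65 and -0.60. The second Idua probe set, with signals of 9.17 to 13.0 in the range of background, differed by -0.09 ± 0.16. Ids, the iduronate-2-sulfatase of the same pathway, read 21.6, 23.7 and 25.6 in wild-type and 19.4, 20.8 and 20.5 in heterozygous lenses. Its genotypes did not overlap either, although the signals were dim, and the difference was -0.22 ± 0.12 (adjusted p = 1.00). The other Ids probe sets, all in the range of background, lay at -0.51 ± 0.16, -0.09 ± 0.13, -0.01 ± 0.17 and 0.01 ± 0.15. Gusb, the beta-glucuronidase, Naglu, which removes N-acetylglucosamine from heparan sulfate, and Sgsh, the heparan N-sulfatase, differed by -0.08 ± 0.24, -0.06 ± 0.29 and 0.10 ± 0.13.

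Gaa, the acid alpha-glucosidase that breaks down glycogen, was the second member with lower signals. It read 80.2, 84.4 and 81.2 in wild-type and 68.5, 61.2 and 54.9 in heterozygous lenses, so the wild-type signals were nearly equal and all heterozygous signals lay below them. The difference was -0.42 ± 0.13 (limma adjusted p = 1.00; unadjusted p = 0.0139). Its probe set carries the suffix x, which Affymetrix gives where some probes may also match other sequences. The other Gaa probe set read 53.4, 80.5 and 60.3 in wild-type and 44.5, 78.0 and 45.6 in heterozygous lenses, lower in each same-numbered pair but with overlap, at -0.24 ± 0.27. Of the other glycosidases of glycoproteins, Neu1 (sialidase), Glb1 (beta-galactosidase) and Fuca1 (alpha-fucosidase) lay at -0.13 ± 0.29, -0.12 ± 0.18 and -0.08 ± 0.16. Neu1 was dim, with a mean signal of 20.7. Another Neu1 probe set, at 19.9, lay at -0.31 ± 0.19 (with the block, limma unadjusted p = 0.0379, adjusted p = 0.528). The mannosidases Man2b1 and Manba lay at 0.06 ± 0.26 and 0.09 ± 0.14.

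**Figure D2:**
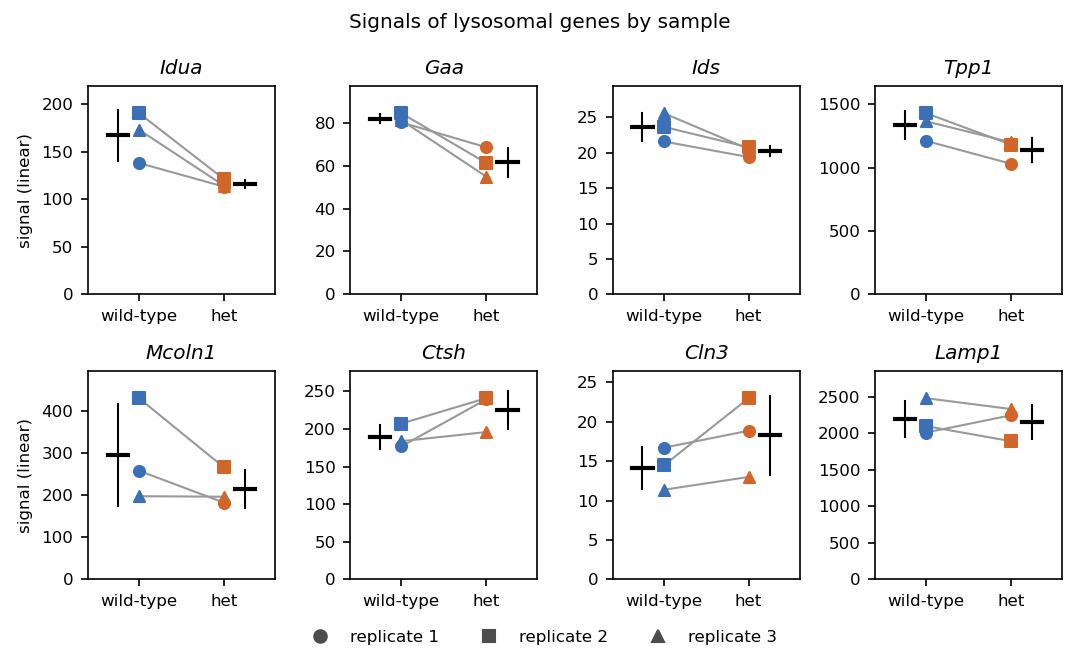
Signals of 8 lysosomal genes in each sample, on linear axes that start at 0. Lines join samples with the same replicate number, thick bars give the mean and thin bars the SD of 3 mice; the genotypes did not overlap for Idua, Gaa, Ids and Tpp1 and overlapped for Mcoln1, Ctsh, Cln3 and Lamp1.

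Among the proteases, Tpp1 had lower and Ctsh higher signals in heterozygous lenses, and the other cathepsins varied mainly between replicates. Tpp1, a tripeptidyl peptidase, read 1212, 1430 and 1366 in wild-type and 1031, 1183 and 1201 in heterozygous lenses. The genotypes did not overlap, by a narrow margin between wild-type replicate 1 and heterozygous replicate 3. The difference was -0.23 ± 0.13 (limma adjusted p = 1.00), and the second Tpp1 probe set gave -0.24 ± 0.12, also without overlap, at 972, 981 and 989 against 879, 738 and 874. Ctsh, an aminopeptidase of the cathepsin family, read 177, 207 and 184 in wild-type and 239, 241 and 196 in heterozygous lenses. It was higher in 3 of 3 pairs, yet heterozygous replicate 3 lay below wild-type replicate 2, and the difference was 0.25 ± 0.14 (adjusted p = 1.00). Ctsl, Ctsd, Ctsa, Ctsz and Ctsb lay at -0.17 ± 0.28, -0.14 ± 0.33, -0.10 ± 0.37, -0.03 ± 0.27 and 0.00 ± 0.24. The other Ctsb probe sets, dimmer but above background, lay at 0.21 ± 0.16, 0.35 ± 0.24 and 0.19 ± 0.18. Ctsa, Ctsd and Ctsl were lower in 3 of 3 pairs by amounts that were small beside their replicate spread.

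In all, 4 members had genotypes that did not overlap with heterozygous lenses lower (Gaa, Ids, Idua and Tpp1; 12.1%, where 3.49% of all genes did so), and 0 with heterozygous lenses higher, where 2.57% of all genes did so. Ctsh, Gaa, Idua and Tpp1 (as Cln2) are in the gene list that the study chose on these samples, so their directions on the arrays are not independent evidence. By qRT-PCR on different RNA preparations, the paper also reports higher Ctsh and lower Gaa and Dnase2b in heterozygous lenses. Idua and Tpp1 are not among the genes it names for qRT-PCR.

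The membrane proteins were similar in level between genotypes, except for Mcoln1 and Cln3, whose samples overlapped. Lamp1, a standard marker of the lysosomal membrane, read 2012, 2101 and 2484 in wild-type and 2250, 1894 and 2335 in heterozygous lenses. The difference was -0.03, with a 95% interval from -0.37 to 0.32, and the pairs differed in sign. Lamp2, which also serves chaperone-mediated autophagy, lay at -0.00 ± 0.22, Scarb2, the receptor that carries glucocerebrosidase to lysosomes, at 0.05 ± 0.20, and Npc1, which exports cholesterol, at 0.17 ± 0.22. Mcoln1, a calcium-permeable channel of the lysosomal membrane, read 259, 431 and 198 in wild-type and 183, 266 and 197 in heterozygous lenses. Replicate 2 was highest in each genotype, and replicate 3 hardly differed between them. The difference was -0.40 ± 0.31. Blocking on the replicate number lowered its error to 0.15 (limma unadjusted p = 0.0384, adjusted p = 0.528 there). Without wild-type replicate 2 the Mcoln1 difference was -0.09. Cln3, a membrane protein lost in juvenile Batten disease, read 16.7, 14.4 and 11.4 in wild-type and 18.9, 23.0 and 13.0 in heterozygous lenses, near the level of background. It was higher in 3 of 3 pairs, at 0.35 ± 0.25 (with the block, unadjusted p = 0.0413, adjusted p = 0.534), and the difference was 0.16 without heterozygous replicate 2.

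Of 6 enzymes and activators of sphingolipid breakdown 4 lay below 0, where 23 of all 33 members and 53.0% of all genes did. None passed the adjusted threshold. Galc, the galactocerebrosidase, read 91.8, 87.3 and 72.4 in wild-type and 64.2, 87.4 and 51.8 in heterozygous lenses. Its difference was -0.33 ± 0.22, and replicate 2 was equal in the genotypes. Gm2a, the activator protein of GM2 ganglioside hydrolysis, read 1365, 1161 and 1486 in wild-type and 1216, 966 and 1227 in heterozygous lenses, lower in 3 of 3 pairs at -0.24 ± 0.16. Its enzyme Hexa lay at -0.17 ± 0.27. Arsa, the arylsulfatase that acts on sulfatide, lay at -0.06 ± 0.27, Asah1, acid ceramidase, at 0.01 ± 0.22 and Psap, the precursor of the saposins, at 0.08 ± 0.18. Of the members that handle other lipids, Lipa (acid lipase), Ppt1 (a thioesterase that removes palmitate from proteins) and Npc2 (a soluble cholesterol carrier) lay at -0.11 ± 0.33, -0.06 ± 0.20 and -0.03 ± 0.12.

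Over the 33 members the median difference was -0.06, with 23 below 0 and 10 above, where all genes had a median of -0.01 with 53.0% below 0. The medians of the members in the pairs of replicates 1, 2 and 3 were -0.02, -0.05 and -0.12. A lower signal in 3 of 3 pairs was seen for 14 members (42.4%), where 17.6% of all genes showed it, and a higher one for 4 (Cln3, Ctsh, Psap and Scarb2; 12.1%, where 14.4% of all genes did). Members lower in 3 of 3 pairs are by definition also lower in any 2 of them. In pairs 1 and 2, 14 members were lower (42.4%, where 28.7% of all genes were). In pairs 1 and 3 it was 18 (54.5%, against 30.8%), and in pairs 2 and 3 it was 17 (51.5%, against 28.6%). The 14 lower in 3 of 3 pairs were Ctsa, Ctsd, Ctsl, Fuca1, Gaa, Glb1, Gm2a, Gusb, Ids, Idua, Mcoln1, Neu1, Ppt1 and Tpp1. The median over single arrays depended on which sample was left out, and was 0.02 without wild-type replicate 2, -0.16 without wild-type replicate 3, -0.12 without heterozygous replicate 2 and -0.01 without heterozygous replicate 3. The members with an E-box in the promoter had a median difference of -0.10 (11 genes) and those without one -0.08 (18 genes).

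The signals of most members, like those of most genes, differed more between replicate numbers than between genotypes. Ctsa, a carboxypeptidase that protects beta-galactosidase and sialidase, read 175, 338 and 156 in wild-type and 173, 289 and 152 in heterozygous lenses. Ctsd, the main aspartic protease of lysosomes, read 870, 1673 and 1118 in wild-type and 833, 1612 and 909 in heterozygous lenses. In both genes replicate 2 was well above the other samples of each genotype. Replicate 2 was the highest sample of both genotypes for 15 of 33 members (45.5%), where this held for 20.8% of all genes, and the lowest of both for 4, Arsa, Gm2a, Gusb and Lamp2 (12.1%, against 24.2%). Among genes above background these shares were 25.7% and 27.4%. Lipa, Neu1, Ctsl and Man2b1 also read higher in replicate 2, by 0.77, 0.73, 0.68 and 0.62 over the mean of the other replicates. These are averages of the genotypes at the brightest probe sets. A second Neu1 probe set of similar signal (19.9, against 20.7) shifted by -0.19, and the other Lipa probe sets by 1.00 and -0.30. The spread between the means of the replicate numbers was larger than the genotype difference in 27 of 33 members (81.8%). This held for 87.8% of all genes and 91% of those above background. The range of 3 means is set here against 1 difference of 2 means, which favors the range. What same-numbered samples share is not stated in the sources used here.

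**Figure D3:**
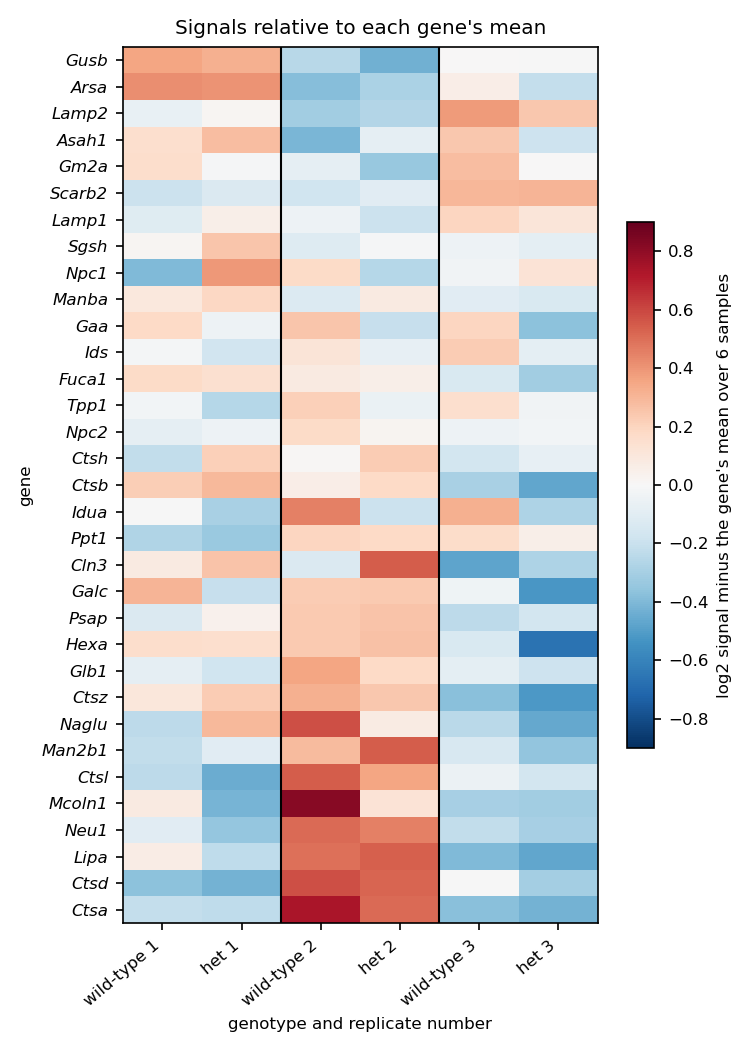
Log2 signals of the 33 lysosomal genes in each sample relative to the mean of the gene over 6 samples, with same-numbered wild-type and heterozygous (het) samples side by side. Genes are ordered by the shift of replicate 2, from Gusb (-0.51) at the top to Ctsa (0.93) at the bottom, and the columns of a replicate number have the same color in most of the genes at either end.

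The members whose promoters hold the longer palindrome TCACGTGA, printed earlier, read higher in replicate 2 by 0.31 (Cln3) to 0.93 (Ctsa). Over the 11 members with any E-box the median shift of replicate 2 was 0.40, with 8 above 0, and over the 18 without one it was 0.17, with 13 above 0. These shifts were not tested.

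Different probe sets of a gene did not always follow the same pattern across samples. Of 14 members with more than 1 probe set above background, 8 had genotype differences of the same sign at all of them and 6 (Ctsz, Fuca1, Gusb, Lamp2, Lipa and Psap) had differences of both signs, from -0.26 to 0.09. For Lamp2, the brightest probe set was lower in replicate 2 by 0.43, on average of the genotypes, while the dimmest was higher by 0.78. That dimmest probe set read 154, 252 and 158 in wild-type and 124, 229 and 128 in heterozygous lenses, lower in each pair at -0.26 ± 0.31 (with the block, limma unadjusted p = 0.0442, adjusted p = 0.538). For Gusb the shifts of replicate 2 were -0.51 and 0.31, for Scarb2 -0.21 and 0.37, and for Neu1 0.73 and -0.19. In all, 6 of the 14 (Gusb, Lamp2, Lipa, Neu1, Scarb2 and Tpp1) had replicate 2 shifts of both signs. Whether the probe sets recognize different transcripts was not tested.

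**Figure D4:**
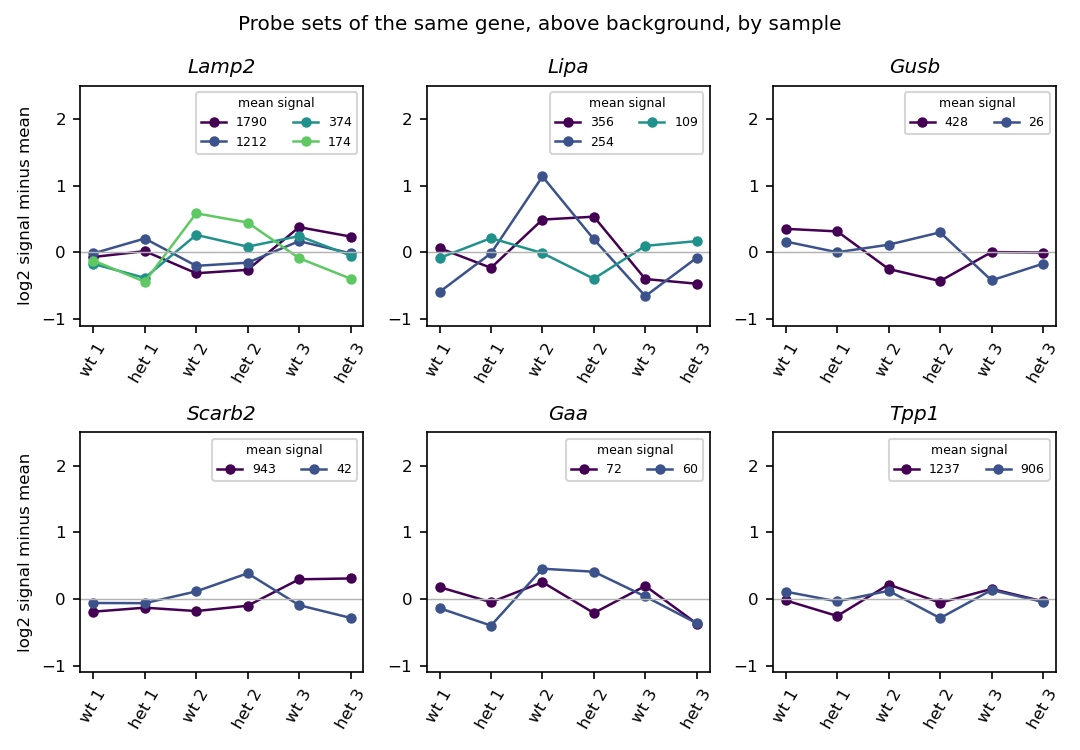
Log2 signals of every probe set above background for 6 lysosomal genes, each relative to its own mean over 6 samples (wt, wild-type; het, heterozygous; the key gives the mean signal of each probe set). Lamp2, Lipa, Gusb and Scarb2 had probe sets that moved in opposite directions in replicate 2, as did those of Tpp1 by smaller amounts (0.12 and -0.12); both probe sets of Gaa and of Tpp1 were lower in heterozygous than in wild-type samples of the same number.

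The wider lysosomal pathway showed no gene past the adjusted threshold either. Of 19 measured other hydrolases 8 lay above 0 and 11 below (median -0.05). Dnase2b, the acid DNase of lens fibers, read 732, 971 and 677 in wild-type and 557, 639 and 466 in heterozygous lenses, without overlap, at -0.51 ± 0.19 (limma unadjusted p = 0.0334, adjusted p = 1.00), and Plbd2, a phospholipase-like protein, lay at 0.28 ± 0.13. Of 16 other lysosomal membrane proteins 6 lay above 0 and 10 below (median -0.02). Ctns, the cystine exporter, read 28.2, 22.6 and 25.6 in wild-type and 22.1, 17.7 and 19.6 in heterozygous lenses, without overlap, at -0.36 ± 0.14 (limma unadjusted p = 0.0430, adjusted p = 1.00), and Cd68, which is also a macrophage gene, lay at 0.68 ± 0.39. The 15 subunits of the V-ATPase, the proton pump that acidifies lysosomes, had a median of -0.02, with Atp6v1e1 at -0.18 ± 0.11 and Atp6v1b2 at -0.30 ± 0.19. The 19 genes of enzyme sorting and lysosome formation had a median of -0.01, with Tfec at -0.23 ± 0.12. Igf2r, the large mannose 6-phosphate receptor that delivers hydrolases to lysosomes, read 502, 410 and 581 in wild-type and 683, 513 and 827 in heterozygous lenses, higher in 3 of 3 pairs at 0.43 ± 0.22 (adjusted p = 1.00). With the block the Igf2r difference had an unadjusted p of 0.00536 and an adjusted p of 0.360 (limma). Tfeb itself was dim, with 11.9, 17.2 and 14.9 in wild-type and 11.7, 16.4 and 14.8 in heterozygous lenses. Tfec was dim as well, at 14.3 to 19.0. Mitf, a related factor, read 2166, 1620 and 2194 in wild-type and 1891, 1394 and 2395 in heterozygous lenses, at -0.10 ± 0.23.

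Macrophage markers varied between the samples, and macrophages are rich in lysosomes. Of 16 macrophage markers 14 lay above background and Itgam and Cx3cr1 did not, and 13 of 16 had differences above 0 (median 0.28). Their summed signal ran from 631 to 1891 in wild-type and from 389 to 2071 in heterozygous lenses, with replicate 1 highest in each genotype. C1qa and C1qc, complement genes of macrophages, lay at 0.72 ± 0.48 and 0.92 ± 0.64. The macrophage markers summed to 669 in wild-type replicate 2. There 19 of 33 members were the highest of the wild-type samples (57.6%, where 32.3% of all genes were). In heterozygous replicate 3 the macrophage markers had a median deviation of -1.21 from their genotype means. Endothelium and mesenchyme markers had median deviations of -0.58 and -0.47 in the same sample. In that sample 17 of 33 members were the lowest of the heterozygous samples (51.5%, where 31.4% of all genes were) and 12 the lowest of all 6 samples (36.4%, where 15.1% of all genes were), among them Hexa at 342 against 492 to 649 elsewhere, Ctsb at 691 against 781 to 1166 and Ctsz at 384 against 425 to 686. These values are of the brightest probe sets. At every other Ctsb probe set the lowest of the 6 samples was wild-type replicate 1. At every other Ctsz probe set it was wild-type replicate 3. Without heterozygous replicate 3 the difference of Gaa was -0.34, that of Idua -0.50 and that of Cln3 0.57. Endothelium markers lay above 0 in 10 of 10 genes (median 0.43; summed signal 825 to 1974 in wild-type and 1083 to 3590 in heterozygous lenses, with all 10 above background; Pecam1 0.55 ± 0.22, Tek 0.52 ± 0.23), and retina and neuron markers in 8 of 9 (median 0.48; 873 to 932 and 1138 to 1772, with Rcvrn at background; Neurod1 0.69 ± 0.17, Elavl4 -0.50 ± 0.13). Pigment cell markers had a median of 0.02 (summed signal 613 to 1385 and 634 to 1439, with Gpr143 at background, 0.16 ± 0.28; Oca2 -0.22 ± 0.19), mesenchyme markers -0.25 (776 to 1164 and 554 to 1043; Pdgfra -0.59 ± 0.13, Dcn -0.73 ± 0.41) and red blood cell markers -0.12 (38.8 to 47.4 and 33.1 to 50.2, with Hba-a1 at background, -0.12 ± 0.14; Slc4a1 -0.14 ± 0.24). The part of these cells in the differences of the lysosomal genes was not tested.

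**Figure D5:**
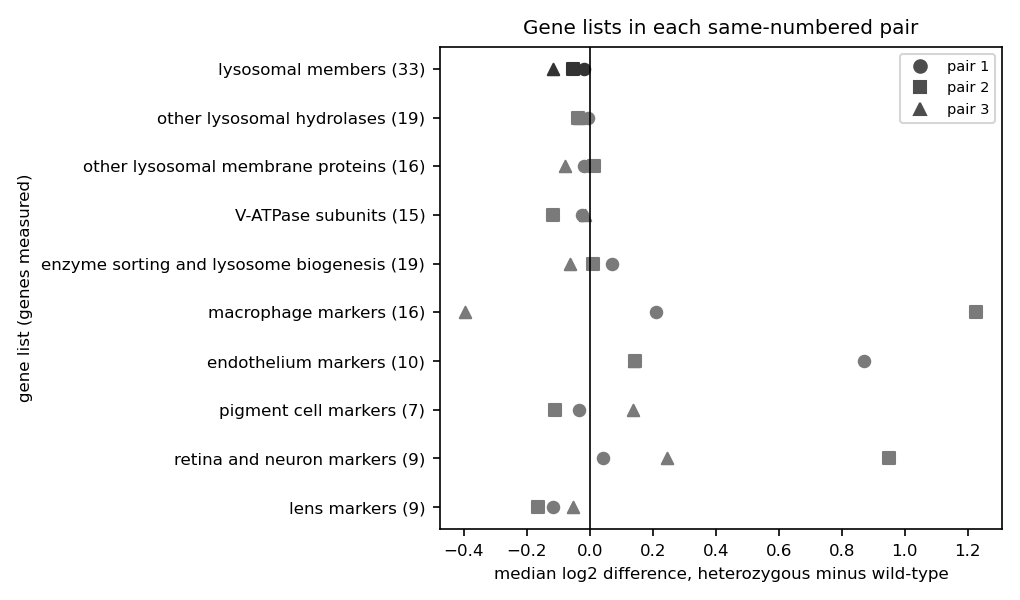
Median log2 difference, heterozygous minus wild-type, of the lysosomal members and of other gene lists in each pair of same-numbered samples, with the number of genes measured in brackets. The lysosomal members lay between -0.12 and -0.02, and the macrophage markers between -0.40 in pair 3 and 1.23 in pair 2.

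As a check of the labels, the brightest Pax6 probe set read 1169, 1760 and 963 in wild-type and 942, 1170 and 882 in heterozygous lenses, lower in 3 of 3 pairs with overlap (-0.34 ± 0.24, limma unadjusted p = 0.208, adjusted p = 1.00; with the block, unadjusted p = 0.0315 and adjusted p = 0.509). Of 9 measured lens markers, 8 lay above background, and Foxe3, an epithelial factor, did not. The lens markers lay below 0 in 8 of 9 genes (median -0.09), the same direction as most lysosomal members, and their part in the differences of the members was not tested. Crygn, a crystallin, lay at -0.21 ± 0.13, and Gja3, a lens connexin, at -0.56 ± 0.52 (limma unadjusted p = 0.323; with the block 0.00141, adjusted p = 0.285). All 33 members lay above the background guide of 12.4, the 95th percentile of 33 olfactory receptor probe sets. The array medians ran from 21.4 to 22.8.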

How the data were processed

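RNA of newborn lenses, 1 mouse per sample, was amplified with the NuGEN Ovation system and hybridized to Affymetrix mouse arrays. The deposited intensity values were made by the authors with RMA (background correction, normalization between arrays and a summary per probe set). Its software version is not given in the sources used here. Background that remains in dim signals shrinks their log2 differences. No count or depth exists, and the number of arrays limits the precision.

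Samples were grouped by title. Log2 signals of 22626 probe sets, after 64 control probe sets were set aside, were fitted with limma 3.58.1 in R 4.3.3 as heterozygous minus wild-type, and p values were adjusted over all of them by the Benjamini-Hochberg method. Genes came from the platform's annotation table. Percentages of all genes are over 12393 genes at their brightest probe set. The members and lists were chosen with earlier results of these data known. Every member is named; values in every sample are given for members with an unadjusted p under 0.05 in either fit, without overlap, or in the study's gene list. A few others, and the examples by replicate and by marker, were chosen after their values were seen. Beside these, Pax6 and the 2 genes of each other list with the smallest p are named.

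The replicate numbers paired the samples: deviations from genotype means correlated at 0.645, 0.734 and 0.604 for the same number and from -0.496 to -0.0751 for different numbers. Such deviations sum to 0 within a genotype, so the negative values follow from the positive ones and are not separate evidence. The alternatives were quantile normalization, median centring, bounds of 50 and 100 on the median signal, an offset of 16, array weights, a robust prior with an intensity trend, the methods' t-test, the mean of all probe sets, the replicate block and leaving out samples or, added after the data were seen, pairs. The fits were tested on simulated data. Promoters were searched in Python 3.11.15.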

Additional observations from a re-analysis of the deposited data

How the results depend on the processing

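None of the 33 members passed an adjusted p of 0.05 under any alternative run. The count of members lower at an unadjusted p under 0.05 was 2, and became 1 (of 22 members left) with a median signal of at least 100, 0 with a trend and robust prior, and 1 with the mean of all probe sets, where 1.24%, 2.12% and 2.48% of all features reached that p in either direction (1.99% as reported). It became 3 with the replicate block, which added Mcoln1 (9.03% of all features), and 3 with the methods' t-test on log2 signals (2.94%). It was 2 to 3 when any 1 sample was left out (1.39% to 2.64% of all features in either direction). It was 0 to 2 when both samples of a replicate number were left out (1.38% to 2.21%). Of these it was 0 without replicate 2 and 0 without replicate 3. The count of members higher was 0. It became 1 (Cln3) with the replicate block (9.03% of all features in either direction) and 1 without heterozygous replicate 3 (2.64%). Its range was thus 0 to 1 when any 1 sample was left out. The median difference was -0.06, from -0.16 to 0.0223 when any 1 sample was left out, and from -0.10 to -0.03 without a replicate number; it was 0.0223 without wild-type replicate 2, the only setting run in which it lay above 0, and the cause was not tested. Beside Mcoln1 and Cln3, the replicate block changed no call of a member. The differences of the 7 members described for their genotype pattern kept their direction under all alternatives that gave a value, Idua from -0.64 to -0.30 and Gaa from -0.51 to -0.33. With 3 mice per genotype the median standard error of a member was 0.22, or 0.11 with the block, which limits the differences that could be told from 0.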
